A study of Saccharomyces cerevisiae with 18 samples.

Results

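*PHO3* and 9 genes of the thiamine regulon, *THI2*, *THI3*, *THI4*, *THI6*, *THI7*, *THI20*, *THI21*, *THI22* and *PET18*, were followed in the RNA of *Saccharomyces cerevisiae* strains with wild-type Spn1 or with the mutants spn1 K192N and spn1 141-305. These 10 of the 6577 genes in the expression matrix were found by the systematic names of their symbols in the R64 annotation. The members were selected on earlier results of these libraries: *PHO3* was chosen by its level, which differed between the genotypes, and the others as its regulon. The *PHO3* values are therefore given as a description with no test. The question was whether *PHO3* moves with its regulon. Spn1 is a histone chaperone that travels with RNA polymerase II. The protein encoded by spn1 K192N carries asparagine in place of a lysine, and that encoded by spn1 141-305 is reduced to residues 141 to 305.

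RNA was prepared from 3 cultures of each genotype, kept at 30°C in the rich medium YPD and taken in mid-exponential growth, and *S. pombe* cells were added to every culture as a spike-in. The strains are MATa derivatives of BY4741 (his3Δ1 leu2Δ0 met15Δ0 ura3Δ0), a laboratory haploid. In the study's strain description, the chromosomal *SPN1* gene of all 3 strains is replaced by *LEU2*, and the *SPN1* allele, wild-type allele included, is expressed from its own promoter on a centromeric *HIS3* plasmid. The labels, however, put the wild-type libraries down as BY4741 with no change at *SPN1*. *HIS3* RNA ran from 12.97 to 14.32 on the log2 scale in the wild-type libraries and from 12.98 to 14.89 in the mutants, and the study's description is used here. YPD does not select for *HIS3*. Whether each genotype is more than 1 transformant is not given in the sources used here.

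Yeast makes thiamine pyrophosphate, the cofactor of pyruvate decarboxylase and transketolase, from a thiazole and a pyrimidine precursor, or takes thiamine up from the medium. *THI2*, *THI3* and *PDC2* encode the activators of the thiamine genes, which are turned down when thiamine is plentiful, as it is in YPD. *PHO3* encodes an acid phosphatase of the cell wall that frees thiamine from its phosphates before uptake, and its transcription is also repressed by thiamine. It lies beside *PHO5*, the repressible acid phosphatase that is induced by the activators Pho4 and Pho2 when phosphate is scarce.

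*PHO3* (YBR092C) occupies chromosome II from 427698 to 429101 on the minus strand of R64, and *PHO5* (YBR093C) lies upstream of it on the same strand, from 429548 to 430951. The coding sequences are separated by 446 bp, and the *PHO3* promoter lies between the paralogs. The 2 windows shown run 5′ to 3′ from 370 to 71 bases before each start codon (chrII:429172-429471 and chrII:431022-431321, minus strand), and are shown because the 2 neighbours differed in opposite directions from wild-type in spn1 K192N. Capitals mark CACGTG and CACGTT, the core letters that Pho4 is known to bind, and TATATAA, a match to the TATA element.
PHO3: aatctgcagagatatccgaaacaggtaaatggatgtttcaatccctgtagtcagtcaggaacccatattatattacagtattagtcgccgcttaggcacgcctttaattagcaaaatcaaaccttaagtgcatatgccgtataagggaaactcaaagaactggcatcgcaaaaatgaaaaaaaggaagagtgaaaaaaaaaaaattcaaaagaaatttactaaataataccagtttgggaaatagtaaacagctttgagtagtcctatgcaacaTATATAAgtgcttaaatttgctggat
PHO5: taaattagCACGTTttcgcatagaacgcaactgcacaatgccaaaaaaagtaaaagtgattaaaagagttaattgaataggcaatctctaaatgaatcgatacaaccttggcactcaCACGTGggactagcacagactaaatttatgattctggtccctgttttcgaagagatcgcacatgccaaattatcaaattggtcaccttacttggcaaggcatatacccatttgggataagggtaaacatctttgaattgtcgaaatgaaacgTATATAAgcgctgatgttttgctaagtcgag
The *PHO5* window held CACGTT with its first base 362 bases upstream of the start codon, CACGTG at 253 and TATATAA at 101. The *PHO3* window held TATATAA at 96 bases upstream and neither of the other motifs. Both strands were searched. Among windows of the same length before 5996 genes, 4.32% held CACGTG, 9.64% held CACGTT and 23.2% held TATATAA. Of the other 9 genes, *THI4* (258 bases upstream) and *THI22* (315 bases upstream, reverse strand) held CACGTT, and *THI4* and *PET18* held TATATAA. These are letter matches in a window and no measure of binding.

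The coding sequences of *PHO3* and *PHO5*, each of 1404 bp, are 86.5% identical, with a longest identical run of 98 bp, and 15.2% of the 31-base words of *PHO3* occur in *PHO5*. The first 90 coding bases (chrII:429012-429101 and chrII:430862-430951, minus strand) show what the quantification had to tell apart, with capitals at the 18 bases that differ.
PHO3: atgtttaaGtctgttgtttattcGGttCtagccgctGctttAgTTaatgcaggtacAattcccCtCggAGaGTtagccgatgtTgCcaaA
PHO5: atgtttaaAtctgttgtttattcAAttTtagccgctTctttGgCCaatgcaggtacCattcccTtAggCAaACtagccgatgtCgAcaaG
Some reads match both genes, so a part of either level may have been assigned to the other. *PHO11* and *PHO12*, phosphatases of the same family, are 81.8% and 81.6% identical to *PHO3* and share 0.509% of its 31-base words.

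*PHO3* was among the most abundant RNAs of these cells. The authors' mean scaled count over all libraries was 24510.5, which per kilobase of coding length placed it at rank 155 of 5729 genes. On the rlog scale, a log2 scale on which the authors shrank differences between libraries, *PHO3* read 14.48, 14.67 and 14.38 in the wild-type libraries (replicates 1, 2 and 3). It read 15.07, 14.81 and 14.76 in spn1 K192N, and 14.13, 14.14 and 14.33 in spn1 141-305. Every spn1 K192N library was above every wild-type library, and every spn1 141-305 library was below them. The means were 14.51 ± 0.15 (SD, n = 3), 14.88 ± 0.17 and 14.20 ± 0.11. In a bulk culture, a level that differs in all cells and one that differs in some of them cannot be told apart.

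The fitted log2 fold change of *PHO3* against wild-type was 0.37 in spn1 K192N (standard error 0.098) and −0.31 in spn1 141-305, and that of spn1 141-305 against spn1 K192N was −0.68. On this shrunken scale these are ratios of 1.29, 0.807 and 0.626. Of the 5954 genes tested, 11 had a higher value than *PHO3* in spn1 K192N, 297 had a lower value in spn1 141-305, and 5 had a lower value between the mutants. In spn1 K192N, 1.44% of tested genes were higher than wild-type with no overlap of the libraries, and in spn1 141-305 45% were lower in the same way. The *PHO3* values chose the gene, and these shares only place it.

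**Figure D1:**
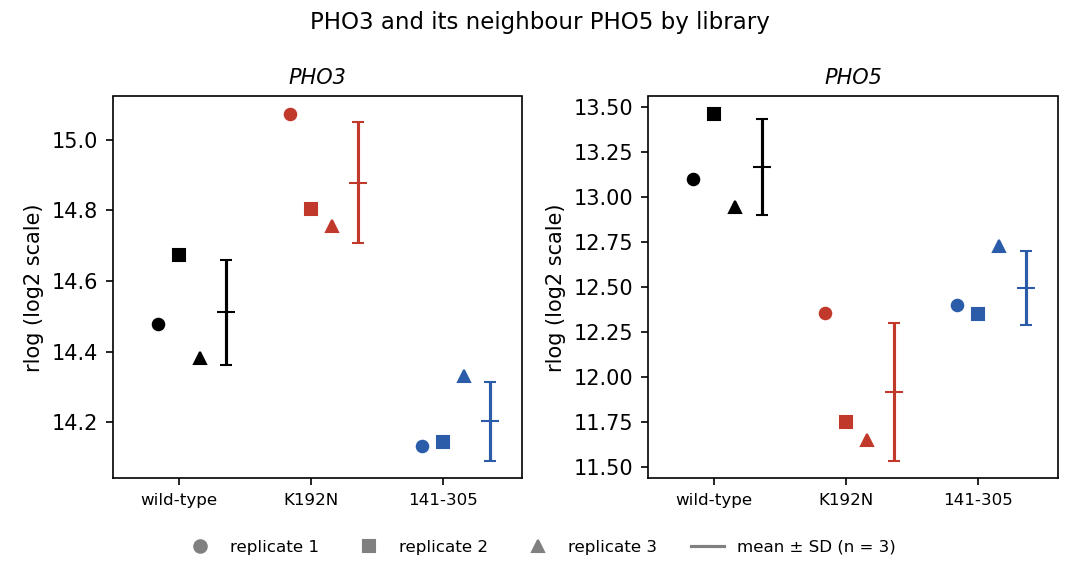
rlog values of PHO3 and PHO5 (log2 scale, vertical axes of different span) in the 9 libraries by genotype. Points are replicates 1, 2 and 3 (circle, square, triangle), and bars are the mean ± SD of 3 libraries. PHO3 is highest in spn1 K192N, where PHO5 has its lowest mean.

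The neighbour went the other way in spn1 K192N. *PHO5* read 13.10, 13.46 and 12.94 with wild-type Spn1, 12.36, 11.75 and 11.65 with spn1 K192N and 12.40, 12.35 and 12.73 with spn1 141-305. All libraries of either mutant were below the wild-type libraries, and the 2 mutants overlapped. By limma with Benjamini-Hochberg adjustment over all tested genes, *PHO5* fell by 1.25 on the log2 scale in spn1 K192N (standard error 0.13, adjusted p = 3.52e-07) and by 0.67 in spn1 141-305 (adjusted p = 0.00151). It was 0.58 higher in spn1 141-305 than in spn1 K192N (adjusted p = 0.0171), a call lost with a prior variance without a trend (adjusted p = 0.219) and without wild-type replicate 1, spn1 K192N replicate 2 or 3, or spn1 141-305 replicate 3 (0.065 to 0.0782). Over all alternatives its adjusted p ran from 2.47e-08 to 0.219.

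The rlog difference *PHO3* minus *PHO5* was 1.34 ± 0.12 (SD, n = 3) with wild-type Spn1, 2.96 ± 0.21 with spn1 K192N and 1.71 ± 0.097 with spn1 141-305. It separated all 3 genotypes without overlap, from 1.21 to 1.44, 2.72 to 3.11 and 1.60 to 1.79. Levels are not corrected for length here, but both coding sequences have the same length.

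The other phosphate-repressible family members also fell in spn1 K192N, *PHO11* by 0.91 (adjusted p = 8.69e-10) and *PHO12* by 0.93 (adjusted p = 1.18e-07). In spn1 141-305, *PHO11* fell by 0.57 (adjusted p = 5.5e-06), while *PHO12* did not pass the test (−0.15, adjusted p = 0.259). The sequences of *PHO11* and *PHO12* were not compared with each other here. Whether reads were divided between them was not tested. *PHO12* was 0.78 higher in spn1 141-305 than in spn1 K192N (adjusted p = 8.56e-06). *PHO11* was 0.34 higher in the same comparison without overlap of the libraries (adjusted p = 0.00806). Its call was lost with a prior variance without a trend (adjusted p = 0.0541). *DIA3*, a more distant relative that is 65.7% identical to *PHO3*, and the activator genes *PHO4* and *PHO2* passed the test in none of the 3 comparisons.

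The thiamine genes themselves differed less than *PHO3* in spn1 K192N and between the mutants. In spn1 141-305, *THI22* (−0.29) and *THI7* (−0.25) came close to the −0.31 of *PHO3*. Because *PHO3* was chosen for a level that differed, its larger differences follow in part from that choice. The mean scaled counts of the other members ran from 67.4 (*PET18*) to 3026.63 (*THI7*), beside 24510.5 for *PHO3*. The rlog scale shrinks differences more at lower counts, and how far this lowered the differences of these members was not tested. All 9 other members passed the filter on low values, a mean rlog of at least log2(10). In spn1 K192N, the 9 fitted log2 fold changes ran from −0.15 to 0.10, with a median of −0.07 beside −0.08 over all tested genes, and 6 of 9 were below 0, as were 83.6% of all. By limma, 0 of 9 were called higher and 0 lower, where 0.403% of tested genes were called higher and 4.8% lower. At an unadjusted p below 0.05, 1 was higher (*THI4*) and 2 were lower (*THI6* and *PET18*). The share of all tested genes at this unadjusted threshold was not counted, here or for the lists below. Such counts therefore cannot be placed against the whole table. The libraries of 1 member, *THI6*, lay below wild-type without overlap, where 18.8% of tested genes did. Without spn1 K192N replicate 1, *THI6*, *THI7* and *THI22* were called lower (values given with each gene), 3 of 9 where 34.1% of tested genes were called lower in the same fit.

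In spn1 141-305, 2 of 9 were called lower, *THI7* and *THI22*, and 0 higher, where 18.8% of tested genes were called lower and 0.453% higher. The 2 of 9 therefore lie close to the share of the whole table. The 9 fitted values ran from −0.29 to 0.01, beside −0.31 for *PHO3*. Their median was −0.08, beside −0.09 over all tested genes, and 8 of 9 values were below 0, as were 86.3% of all. The libraries of 5 members (*THI3*, *THI6*, *THI7*, *THI21* and *THI22*) were below those of wild-type without overlap, where 45% of tested genes were.

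Between the mutants, 0 of 9 were called in either direction, where 1.28% of tested genes were called lower in spn1 141-305 and 0.621% higher. *THI4* and *THI22* were lower at an unadjusted p below 0.05. The 9 values ran from −0.17 to 0.03, with a median of −0.05 beside −0.02 over all tested genes, while *PHO3* stood at −0.68. Of the 9, 7 were below 0, as were 63.4% of all tested genes. The libraries of 2 members, *THI4* and *THI22*, were lower in spn1 141-305 than in spn1 K192N without overlap and those of 0 were higher, where 12% and 4.55% of tested genes were. The comparisons with wild-type share its 3 libraries and are not independent of each other.

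**Figure D2:**
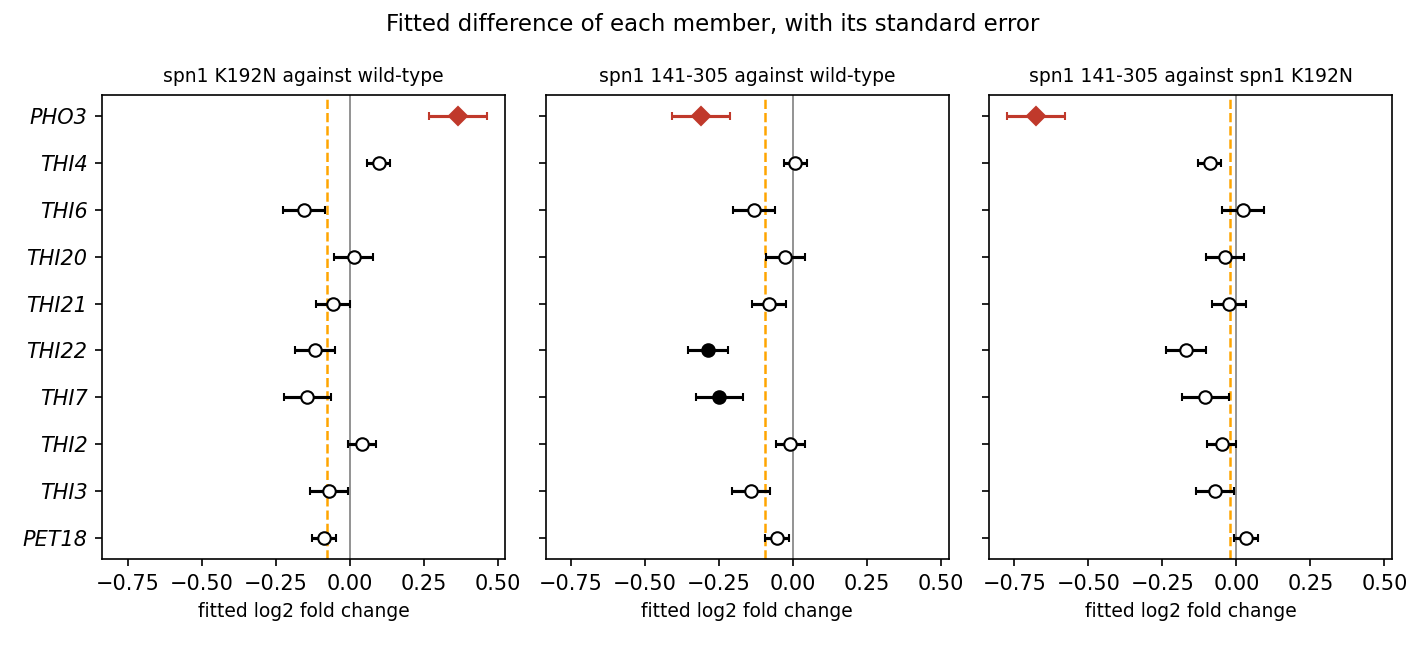
Fitted log2 fold change of each member (horizontal axis) in the 3 comparisons, with its standard error as bars. The red diamond is PHO3, filled circles are members called by limma at an adjusted p below 0.05, open circles are members not called, the grey line is 0 and the dashed line is the median of all tested genes. The other 9 members lie between −0.29 and 0.10, and PHO3 lies at 0.37, −0.31 and −0.68.

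The distance of *PHO3* from its regulon was taken in each library as its deviation from its own mean over the 9 libraries, minus the median deviation of the other 9 members. This was −0.08 ± 0.18 (SD, n = 3) with wild-type Spn1, 0.34 ± 0.076 with spn1 K192N and −0.28 ± 0.096 with spn1 141-305. Relative to the other members, *PHO3* was highest in the spn1 K192N libraries, which ran from 0.29 to 0.43. The wild-type libraries ran from −0.20 to 0.13 and those of spn1 141-305 from −0.35 to −0.17, so these overlapped. This score over chosen members has no test, and *PHO3* was chosen by its level.

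Of the regulators, *THI2* (YBR240C, chromosome II from 700490 to 701842) encodes the zinc-cluster activator and was one of the least abundant members, at the 6.95 percentile of scaled count per kilobase. It read 6.49, 6.52 and 6.40 with wild-type Spn1, 6.60, 6.54 and 6.39 with spn1 K192N and 6.49, 6.47 and 6.42 with spn1 141-305. The genotypes overlapped fully, with fitted log2 fold changes of 0.04 and −0.01 against wild-type. *THI3* (YDL080C, chromosome IV from 310642 to 312471), whose product resembles pyruvate decarboxylase and senses thiamine pyrophosphate, lay at the 36.5 percentile. Its values were 9.34, 9.21 and 9.27 with wild-type Spn1, 9.27, 9.22 and 9.12 with spn1 K192N and 9.12, 9.12 and 9.16 with spn1 141-305. All 3 spn1 141-305 libraries were below wild-type, but the difference of −0.14 did not pass the limma test (adjusted p = 0.11). It passed with only these 2 groups in the fit (adjusted p = 0.0451), as it did when spn1 K192N replicate 1 was left out (adjusted p = 0.0476), and the range over all alternatives was 0.0451 to 0.587.

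*THI7* (YLR237W, chromosome XII from 612367 to 614163), the thiamine transporter of the plasma membrane, was the most abundant member after *PHO3*, at the 80.8 percentile per kilobase. Its rlog values were 11.75, 11.63 and 11.67 with wild-type Spn1, 11.70, 11.41 and 11.50 with spn1 K192N and 11.45, 11.45 and 11.40 with spn1 141-305. The spn1 141-305 libraries were all below wild-type, and those of spn1 K192N overlapped with both. *THI7* fell by 0.25 in spn1 141-305 (standard error 0.079, limma adjusted p = 0.0297). That call was lost when the libraries were centred on their median gene (−0.15, adjusted p = 0.0727), without wild-type replicate 1 (adjusted p = 0.146) or 2 (adjusted p = 0.0627), and without spn1 141-305 replicate 1, 2 or 3 (adjusted p = 0.087, 0.0773 and 0.099), with a range of 0.00136 to 0.146 over the alternatives. In spn1 K192N the fitted value was −0.14 (adjusted p = 0.269), and it was called only without spn1 K192N replicate 1 (−0.23, adjusted p = 0.00966). *THI7* and its relatives *THI71* and *THI72* are 83.8% and 84% identical in coding sequence and share 1.7% and 4.98% of the 31-base words of *THI7*.

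Among the synthesis genes, *THI4* (YGR144W, chromosome VII from 780399 to 781379), which encodes the thiazole synthase, lay at the 7.73 percentile. It read 6.09, 6.11 and 6.16 with wild-type Spn1, 6.27, 6.23 and 6.16 with spn1 K192N and 6.15, 6.08 and 6.15 with spn1 141-305. The lowest spn1 K192N library lay within the wild-type range. The fitted value of 0.10 in spn1 K192N did not pass the test (adjusted p = 0.134). With the libraries centred on their median gene it was 0.17 and passed (adjusted p = 0.0457), with a range of 0.0457 to 0.462 over the alternatives. This was the highest value of the 9 members in that comparison, beside 0.37 for *PHO3*.

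*THI6* (YPL214C, chromosome XVI from 148569 to 150191) encodes the enzyme that joins the thiazole to the pyrimidine, and lay at the 47.8 percentile. It read 9.63, 9.59 and 9.62 with wild-type Spn1, 9.58, 9.48 and 9.31 with spn1 K192N and 9.47, 9.42 and 9.55 with spn1 141-305. Both mutants lay below wild-type without overlap, but the differences of −0.15 (adjusted p = 0.179) and −0.13 (adjusted p = 0.173) did not pass the test. Without spn1 K192N replicate 1 the first was −0.21 (adjusted p = 0.0114, range over all alternatives 0.0114 to 0.618).

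*THI20*, *THI21* and *THI22* are a family whose coding sequences are 75.1% to 82.1% identical and share 0% of their 31-base words. *THI20* and *THI21* encode kinases of the pyrimidine precursor, and *THI22* a relative of them that is not needed for thiamine synthesis. *THI20* (YOL055C, chromosome XV from 224420 to 226075) ran from 8.55 to 8.59 with wild-type Spn1, 8.46 to 8.74 with spn1 K192N and 8.51 to 8.58 with spn1 141-305, with fitted values of 0.01 and −0.03. *THI21* (YPL258C, chromosome XVI from 53498 to 55153) ran from 8.25 to 8.35, 8.15 to 8.34 and 8.19 to 8.23, with fitted values of −0.06 and −0.08. Neither kinase gene passed the test in any comparison, and no alternative gave a call for either.

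*THI22* (YPR121W, chromosome XVI from 778583 to 780301) had the lowest adjusted p of the 9 members in spn1 141-305. It read 9.57, 9.61 and 9.53 with wild-type Spn1, 9.58, 9.42 and 9.36 with spn1 K192N and 9.29, 9.24 and 9.33 with spn1 141-305. The spn1 141-305 libraries were below all others. *THI22* fell by 0.29 in spn1 141-305 (standard error 0.067, limma adjusted p = 0.00455), and the call held under all 15 alternatives (adjusted p from 5.28e-05 to 0.0319). The difference of −0.12 in spn1 K192N did not pass (adjusted p = 0.288), and passed only without spn1 K192N replicate 1 (−0.18, adjusted p = 0.0242, range 0.0242 to 0.673). Between the mutants the value was −0.17 (adjusted p = 0.246), so the 2 effects were not shown to differ.

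*PET18* (YCR020C, chromosome III from 154012 to 154659), whose product resembles the thiaminase part of Thi20, lay at the 11.1 percentile and read 6.17, 6.04 and 6.11 in wild-type. It read 5.95, 6.06 and 6.05 in spn1 K192N, and 6.06, 6.07 and 6.03 in spn1 141-305. The genotypes overlapped, with fitted values of −0.09 (adjusted p = 0.188) and −0.05. In spn1 K192N replicate 1, where *PHO3* had its highest value, *PET18* had its lowest.

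**Figure D3:**
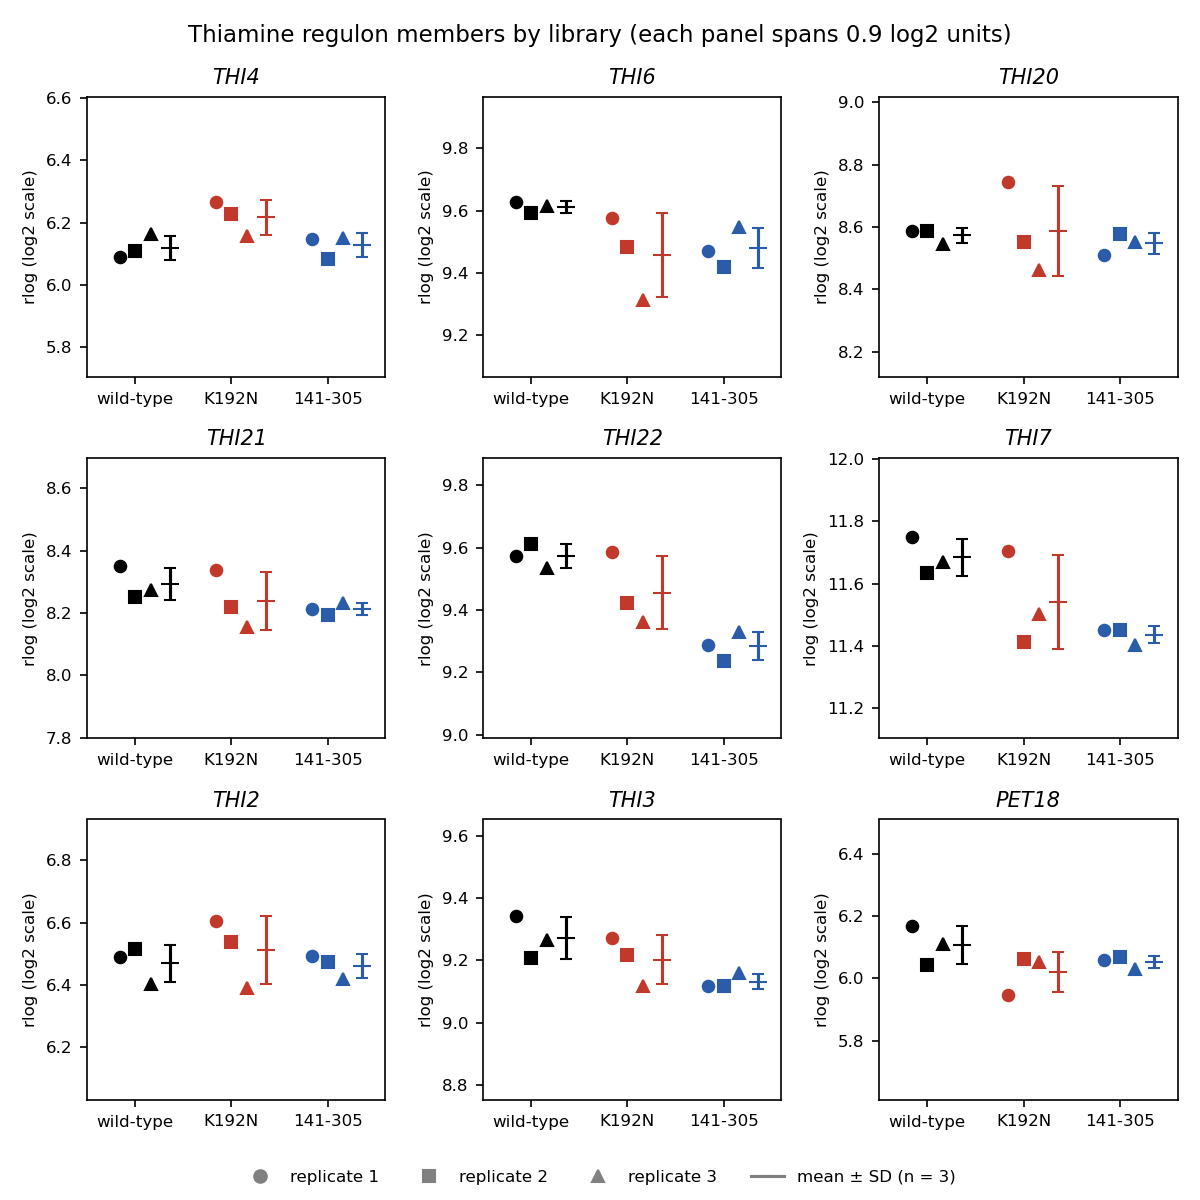
rlog values (log2 scale) of the 9 members other than PHO3 in the 9 libraries by genotype. Every panel spans 0.9 log2 units, points are replicates 1, 2 and 3 (circle, square, triangle) and bars are the mean ± SD of 3 libraries. THI22 and THI7 are lowest in spn1 141-305, and replicate 1 of spn1 K192N is the highest of its genotype for 8 of the 9 genes, PET18 being the exception.

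That library stands apart from the others of its genotype across the table. The median deviation of all tested genes from their own means was 0.061 in spn1 K192N replicate 1, beside −0.047 and −0.062 in replicates 2 and 3, −0.052 to −0.027 in spn1 141-305 and 0.018 to 0.11 in wild-type. Without it, *PHO3* was still higher in spn1 K192N than with wild-type Spn1, by 0.27 on the log2 scale. With all libraries centred on their median gene, the *PHO3* differences from wild-type were 0.44 and −0.21.

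Other genes of thiamine synthesis, transport and regulation were taken as a list of 16. In spn1 K192N, 2 were called higher and 0 lower, *THI11* (0.16, limma adjusted p = 0.0215) and *PDC5* (0.24, adjusted p = 0.049), where 0.403% of tested genes were called higher. *PDC5* encodes a minor pyruvate decarboxylase, and its values of 9.65, 9.35 and 9.44 were above all 3 wild-type values of 9.33, 9.21 and 9.17. *THI11* encodes an enzyme of pyrimidine precursor synthesis and read 6.34, 6.19 and 6.24, above the 6.11, 6.14 and 6.06 of wild-type. It is 97.8% to 99.3% identical within the family of *THI5*, *THI11*, *THI12* and *THI13*, whose reads the quantification had to divide, and the other 3 copies were not called. Their values were also above 0, at 0.07 for *THI12*, 0.05 for *THI13* and 0.02 for *THI5*, where 83.6% of tested genes were below 0. All copies had low mean scaled counts, from 17.1 (*THI5*) to 73.1 (*THI11*), at the 2.34 to 7.44 percentile per kilobase. The *THI12* libraries were all above wild-type (limma unadjusted p = 0.0305, adjusted p = 0.168). Of the 16, 3 lay above wild-type without overlap and 3 below (*THI72*, *THI73* and *TPC1*), where 1.44% and 18.8% of tested genes did. At an unadjusted p below 0.05, 4 were higher and 3 lower. With a prior variance without a trend, neither *THI11* nor *PDC5* passed (adjusted p = 0.0945 and 0.0898). *THI11* also lost its call without wild-type replicate 1 or 3 (up to 0.108), and *PDC5* in 7 of the 9 fits with 1 library left out (0.0551 to 0.149), those without spn1 K192N replicate 2 and spn1 141-305 replicate 3 being the exceptions.

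In spn1 141-305, 3 of the 16 were called lower and 0 higher: *THI71*, also called *NRT1*, a nicotinamide riboside transporter (−0.25, adjusted p = 0.0124), *THI74*, a transporter gene repressed by thiamine (−0.19, adjusted p = 0.034), and *TPC1*, the mitochondrial carrier of thiamine pyrophosphate (−0.26, adjusted p = 0.00313). The 3 of 16 match the 18.8% of tested genes called lower. The median of the list was −0.04, beside −0.09 over all tested genes. Of the 16, 6 lay below wild-type without overlap and 1 above, where 45% and 1.6% of tested genes did. The 1 above was *PDC5* (0.17, limma adjusted p = 0.104), while *PHO3* was lower there (−0.31). *PDC5* was called higher with centred libraries (adjusted p = 0.00325), with only 2 groups (0.0212) and without spn1 K192N replicate 1 (0.025). *TPC1* kept its call under all alternatives (adjusted p up to 0.0423), *THI71* lost it without wild-type replicate 1 or spn1 141-305 replicate 1 or 2 (up to 0.0824), and *THI74* without any 1 of the 6 libraries compared (up to 0.126) and with centred libraries (0.238). Between the mutants 0 of 16 were called, with 5 lower and 0 higher at an unadjusted p below 0.05.

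Of 9 genes for enzymes that use thiamine pyrophosphate, 1 was called higher and 0 lower in spn1 K192N, where 0.403% and 4.8% of tested genes were. The gene called was *PDC6*, a minor pyruvate decarboxylase (0.12, limma adjusted p = 0.039). It lay at the 3.09 percentile per kilobase. Its lowest spn1 K192N library (5.348) was below the highest wild-type library (5.360). The call was lost without wild-type replicate 1 or 3 or spn1 K192N replicate 3 (adjusted p = 0.0922 to 0.271). It was also lost with a prior variance without a trend (adjusted p = 0.168). In spn1 141-305, 2 were called lower and 0 higher, *PDC1*, the major pyruvate decarboxylase (−0.33, adjusted p = 0.0297), and *ARO10*, a decarboxylase of aromatic amino acid breakdown (−0.30, adjusted p = 0.0019). The 2 of 9 lie close to the same 18.8%. The call of *ARO10* held under all alternatives (up to 0.0414), and that of *PDC1* was lost without wild-type replicate 1 or 2 or spn1 141-305 replicate 1 or 2 (0.0807 to 0.163), with centred libraries (0.0504) and with the replicate block (0.066). Between the mutants 0 of 9 were called, with 3 lower at an unadjusted p below 0.05.

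Likeness to *PHO3* was measured as Pearson's r of the rlog values over the 9 libraries, a description over points that share 3 genotypes and library-wide shifts. The members ran from −0.49 (*PET18*) to 0.70 (*THI4*), with a median of 0.40 beside 0.21 for all 5953 other tested genes. Of these genes, *THI4* ranked 314, *THI22* (r = 0.61) 562 and *THI6* (r = 0.065) 3900. Ranked above *THI4* were *THI11* (r = 0.82, rank 82), *THI12* (0.80, rank 116) and *THI13* (0.71, rank 272). Their family copy *THI5* ranked below it (0.67, rank 387). The reads of these copies had to be divided, so their ranks are not independent. The cofactor enzyme genes *PDC1* (0.89, rank 24) and *PDC6* (0.79, rank 133) also ranked above *THI4*. The ranks rest on the *PHO3* values that chose the gene and have no test. The 5 nearest were YHR054C (0.98), *TDA6* (0.97), *COS4* (0.97), *SSU72*, a phosphatase of the RNA polymerase II tail (0.96), and *NDE1*, the external NADH dehydrogenase of mitochondria (0.96). *PHO5* had r = −0.25, rank 5181. *SPN1* itself ranked 7, with r = 0.95.

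*SPN1* (YPR133C, chromosome XVI from 795978 to 797210) and the plasmid marker *HIS3* differed strongly between cultures of 1 genotype. *HIS3*, which was looked at after the *SPN1* values were seen, read 13.54, 14.32 and 12.97 in wild-type, 14.89, 13.71 and 13.41 with spn1 K192N and 12.98, 13.02 and 13.73 with spn1 141-305. *SPN1* read 12.27, 12.95 and 11.66, then 13.62, 12.55 and 12.28, then 11.06, 11.07 and 11.79. The 2 plasmid genes and *PHO3* put the 3 libraries of each genotype in the same order, as did 107 of the 5953 genes (1.8%).

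With the mean of each genotype removed, a measure added after the values were seen, the genes nearest to *PHO3* were *HIS3* (r = 0.995, rank 1), *SPN1* (0.993, rank 2) and *PHO5* (0.992, rank 3). *PHO5* therefore followed *PHO3* from culture to culture within a genotype while it differed from it between genotypes. The members had a median r of 0.52 within genotypes, beside 0.45 over all genes, and ran from −0.83 (*PET18*) to 0.89 (*THI22*, rank 147). These 9 points leave 6 after 3 means are removed, and 9.27% of genes reached an r of 0.8.

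**Figure D4:**
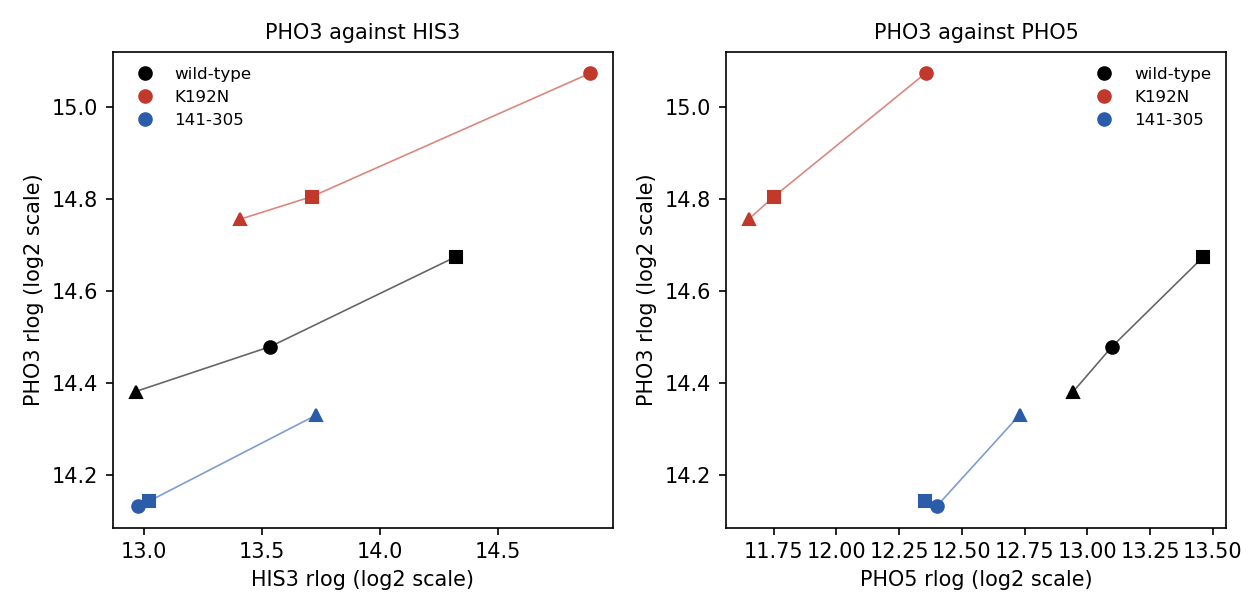
PHO3 (vertical axes) against HIS3 and against PHO5 (horizontal axes), rlog on the log2 scale, 1 point per library with replicates 1, 2 and 3 as circle, square and triangle. Lines join the libraries of 1 genotype. Within each genotype PHO3 is higher where HIS3 is higher, and where PHO5 is higher except between replicates 1 and 2 of spn1 141-305, and at like HIS3 levels spn1 K192N lies above wild-type and spn1 141-305 below it.

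A least-squares fit with *HIS3* as a term beside genotype, also added after the values were seen, gave *PHO3* a slope of 0.22 on *HIS3*. The residual SD of *PHO3* went from 0.15 without the term to 0.016 with it. With the term, the *PHO3* difference was 0.28 in spn1 K192N and −0.23 in spn1 141-305 against wild-type, and −0.51 between the mutants. The differences of *PHO3* between genotypes were thus smaller with the plasmid gene in the fit and kept their directions. For *PHO5*, the slope was 0.45, and the differences were −1.43, −0.51 and 0.92. *HIS3* was not called in any comparison (0.40, −0.36 and −0.76 on the log2 scale). *SPN1* was called lower in spn1 141-305 than in wild-type (−0.99, limma adjusted p = 0.00638). That call was lost without wild-type replicate 1 or 2 and with a prior variance without a trend (up to 0.0785). *SPN1* was also called lower than in spn1 K192N (−1.51, adjusted p = 0.000531), but not with a prior variance without a trend (0.114). The shortened gene of spn1 141-305 offers fewer bases to sequence. Whether this or the plasmid level lowered *SPN1* was not tested. The part of plasmid level in the *PHO3* values was not tested.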

How the data were processed

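Poly-A RNA of 9 cultures, 3 per genotype, was sequenced. The authors quantified transcripts with Salmon 1.9 on cDNA of both yeasts, scaled libraries with DESeq2 1.30.1 (R 4.0.3) by *S. pombe* size factors, and deposited values on the log2 scale of rlog. From the deposited comparison tables, the authors' mean scaled count, a signal averaged over all libraries, was the only column used. Their fold changes and p-values were not used. Depth is unknown, so no counting error is given. The chromatin samples were not analysed here.

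The members and lists were chosen with earlier results of these data known. Named genes are the members, list genes that were called, the phosphatase relatives, *PHO4* and *PHO2*, *SPN1* and the 5 genes most like *PHO3*. Some list genes that were not called are also named (*THI5*, *THI12*, *THI13*, *THI72*, *THI73* and *PDC2*), and their choice followed no stated rule. *HIS3* was added later. Names, positions and sequences came from RefSeq R64 (5896 of 6577 identifiers matched), and the tables of protein sequences were not used here. Differences were fitted with limma 3.58.1 (R 4.3.3), each genotype with its own mean and the prior variance following the level. The 5954 genes whose rlog averaged log2(10) or more were tested two-sided, p-values were adjusted over them by Benjamini-Hochberg, and genes below 0.05 were called. The fit was tested on simulated data. The cultures were grown separately, and p-values measure the spread between them. Alternatives changed the filter, centring, prior variance, groups in the fit, replicate block and the libraries kept. Python 3.11.15, numpy 2.4.6, pandas 2.3.3, Biopython 1.88 and matplotlib 3.10.9 served the remaining steps.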

Additional observations from a re-analysis of the deposited data

How the results depend on the processing

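*PHO3* kept its direction in all 3 comparisons under every alternative run. That was largely fixed in advance. *PHO3* was chosen by these values, and its libraries did not overlap between genotypes, so leaving out 1 library could not reverse a difference. Of the other alternatives, only centring and *HIS3* as a term changed its fitted values. With 1 library left out, its log2 fold change ran from 0.27 to 0.45 in spn1 K192N, −0.37 to −0.23 in spn1 141-305 and −0.74 to −0.58 between the mutants, where *HIS3* as a term gave −0.51. Of 396 refits of the other 9 members, 384 kept their side of the threshold, 6 gained a call and 6 lost one. Of those with a call in the main fit or the refit, 0 reversed direction. Values that were not called could change sign, as *THI20* in spn1 K192N, which ran from −0.07 to 0.08 with 1 library left out. Centring the libraries on their median gene gave 1 member called higher in spn1 K192N (*THI4*) and 1 called lower in spn1 141-305 (*THI22*). In these fits 1.29% of tested genes were called higher in spn1 K192N and 8.3% lower in spn1 141-305. Leaving out 1 library gave 0 to 3 members lower in spn1 K192N (3 without spn1 K192N replicate 1) and 1 to 3 in spn1 141-305.

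Among the 16 thiamine genes, those called higher in spn1 K192N numbered 1 without a filter, 1 with the filter raised to log2(100), 0 with a prior variance without a trend and 0 to 2 with a library left out, which also gave 0 to 2 lower. In spn1 141-305, 5 were lower and 1 higher with only 2 groups in the fit, 1 was higher with centred libraries, and leaving out a library gave 1 to 5 lower and 0 to 1 higher. The gene called higher was *PDC5* each time. Between the mutants, leaving out a library gave 0 to 1 lower. Among the 9 cofactor enzymes, those higher in spn1 K192N numbered 0 with the stricter filter, 0 without a trend and 0 to 1 with a library left out, which also gave 0 to 3 lower. In spn1 141-305, 1 was lower with centred libraries, 6 with 2 groups and 1 to 6 with a library left out. Between the mutants, 1 was lower with the stricter filter, 1 with centred libraries and 0 to 2 with a library left out. The shares of all tested genes moved in the same fits. In spn1 141-305, 34.9% were lower and 0.991% higher with 2 groups, and 8.3% and 3.17% with centred libraries. With a library left out, 4.67% to 34.2% were lower in spn1 141-305. In spn1 K192N it was 0.84% to 34.1%, the highest share being without spn1 K192N replicate 1. Higher calls in spn1 K192N made up 0.352% without a filter, 0.442% with the stricter filter and 0.235% without a trend. With a library left out, 0.202% to 0.739% were higher in spn1 K192N and 0.151% to 0.941% in spn1 141-305. Between the mutants, 1.75% were lower with the stricter filter, 2.38% with centred libraries and 0.638% to 2.45% with a library left out.

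Over all tested genes, 286 were called lower and 24 higher in spn1 K192N (50 to 2031 and 12 to 77 over the alternatives), 1120 and 27 in spn1 141-305 (278 to 2077 and 9 to 189), and 76 and 37 between the mutants (13 to 146 and 6 to 116). The causes were not tested. Same-numbered libraries did not deviate together, with r from −0.28 to 0.25. A fit with the replicate number as a block gave 469 genes lower in spn1 K192N, and left the members called at 0, 2 and 0 lower and 0 higher.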
